A study of Mus musculus with 12 samples.

Results

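The 10 genes described here, Ttn, Tcap, Des, Actn2, Acta1, Casq1, Ckm, Pygm, Mb and Cox8b, encode parts of the sarcomere and enzymes, calcium and oxygen binding proteins of striated muscle, and they were followed in RNA-seq libraries of the mouse organ of Corti. They are 10 of the 55348 genes in the count tables, and all 10 were among the 19052 genes with enough counts to be tested. They were picked by name because muscle genes moved in both directions in mice lacking both clarins, so the values of those mice against wild-type are given as a description, with no test.

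The sarcomere is the contractile unit of striated muscle, in which myosin thick filaments slide along actin thin filaments that are anchored at the Z-disc. Contraction is started by calcium released from the sarcoplasmic reticulum and is paid for with ATP from creatine phosphate, glycogen and mitochondria. The organ of Corti is a sensory epithelium with no skeletal muscle of its own, and its hair cells hold actin bundles but no sarcomeres.

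The study compared mice without clarin-1, without clarin-2 or without both, tetraspan-like membrane proteins needed for hearing. Clrn1-/- mice carried a constitutive deletion of exon 4, made by crossing a floxed allele with PGK-cre mice, Clrn2-/- mice carried the clarinet nonsense mutation in both copies, and Clrn1-/-Clrn2-/- mice came from crossing both lines. Wild-type mice came from breedings of their own rather than from the mutant litters, which means that genotype and breeding cannot be told apart. The strain background of the sequenced mice is not given in the sources used here. Each genotype had 3 libraries, 12 in all, from organs of Corti dissected at postnatal day 21 without the stria vascularis and modiolus. How many animals went into a library is not stated, so p-values measure only the spread between these samples.

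Counts on genes ranged from 30008679 to 41049302 per library, and levels are given as CPM, counts scaled to a common library size with TMM factors. The label checks held for Clrn1, which lay at 23.8 to 28.6 CPM in wild-type, 2.69 to 3.04 in Clrn1-/- and 1.77 to 2.71 in Clrn1-/-Clrn2-/- libraries. Clrn2 lay at 1.89 to 3.24 CPM in wild-type and 1.04 to 1.38 CPM in Clrn2-/- libraries, and at 0.85 to 1.04 CPM in Clrn1-/- libraries, where the gene is intact. The 14 hair cell markers summed to between 2484 and 3993 CPM in every library, but neuron and myelin markers were also high, at 8626 to 13462 CPM and 20190 to 22384 CPM, respectively. No member gene lies on chromosome 3 or 5, where Clrn1 and Clrn2 are.

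Marker genes of skeletal muscle were low in these libraries. The 20 skeletal muscle markers summed to 93.4 to 109 CPM in wild-type, 114 to 119 in Clrn1-/-, 88.3 to 95.6 in Clrn2-/- and 81.0 to 86.2 in Clrn1-/-Clrn2-/- libraries. Without Myl1, an alternative chosen after the data were seen, the other 19 summed to 84.7 to 98.0 CPM in wild-type, 76.2 to 79.1 in Clrn1-/-, 81.7 to 87.9 in Clrn2-/- and 78.0 to 83.5 in Clrn1-/-Clrn2-/- libraries, so the higher sum of Clrn1-/- libraries rests on that gene. Of the 16 markers tested, 3 were called higher and 1 lower in Clrn1-/- mice, and 1 higher and 2 lower in Clrn2-/- mice. Over all tested genes, 3.52% and 3.7% were called in Clrn1-/-, and 1.24% and 1.42% in Clrn2-/- mice. In Clrn1-/-Clrn2-/- mice, with no test, 3 of the 16 lay above wild-type and 13 below, with a median log2 difference of -0.60. At least 1.5-fold apart without overlap of libraries were 1 above and 6 below, beside 6.48% and 4.41% of all tested genes. Myh2, a fast skeletal myosin heavy chain, and Ampd1, the muscle AMP deaminase, had at most 3 counts in every library. Of the myogenic regulators, Myod1, Myf5, Myf6, Myog and Pax7 also had at most 3 counts in every library, with Myf5 at 0 throughout. In whole tissue, fewer cells of a type and less RNA per cell cannot be told apart.

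Per kilobase of exon, the members spanned a wide range in wild-type libraries. Cox8b was the highest at 55.6 ± 4.1 CPM per kb (SD, n = 3), followed by Pygm at 22.2 ± 1.1, Tcap at 18.2 ± 5.5, Casq1 at 4.0 ± 0.50, Des at 2.19 ± 0.24 and Actn2 at 1.16 ± 0.18. Mb at 0.451 ± 0.035, Acta1 at 0.376 ± 0.26, Ttn at 0.148 ± 0.011 and Ckm at 0.0679 ± 0.039 CPM per kb were the lowest. The neighbours Pygm and Tcap, and Mb and Acta1, did not differ beyond their spread. Skeletal actin and muscle creatine kinase, which are abundant in muscle fibres, were among the 4 lowest of the set. Ttn has 116825 bases of exon and Cox8b 360, so a similar CPM in wild-type libraries corresponds to very different levels per kilobase.

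**Figure D1:**
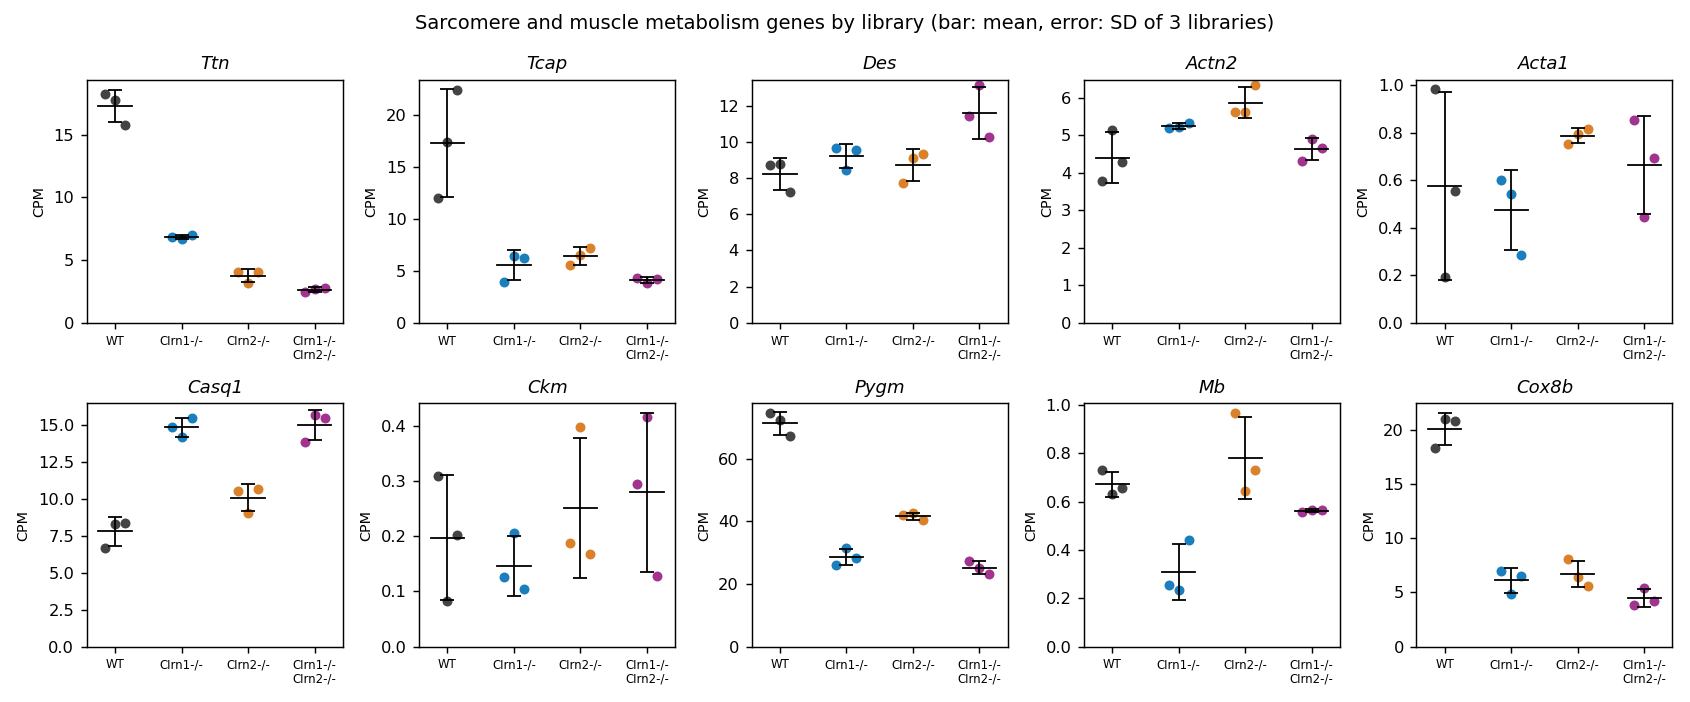
CPM of the 10 genes in each of the 12 libraries, with 3 points per genotype, a horizontal bar at the mean and an error bar of 1 SD, on axes that start at 0. Wild-type points lie above those of all mutants for Ttn, Tcap, Pygm and Cox8b and below them for Casq1, whereas the points of Acta1 and Ckm are spread over the same low range in all genotypes.

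Against wild-type, 6 of the 10 genes passed the test in Clrn1-/- mice, 1 higher and 5 lower, and 4 passed in Clrn2-/- mice, 0 higher and 4 lower. To pass, a gene needed a change of 1.5-fold or more together with an adjusted p no higher than 0.05 in edgeR's quasi-likelihood test. Over all tested genes, 3.52% were called higher and 3.7% lower in Clrn1-/-, and 1.24% higher and 1.42% lower in Clrn2-/- mice. Ttn, Tcap, Pygm and Cox8b fell in both lines, Mb fell in Clrn1-/- mice, and Casq1 rose in Clrn1-/- mice. These comparisons share the wild-type libraries with the one the genes were picked on, so they are not independent of that choice. The median log2 change of the 10 genes was -0.76 in Clrn1-/- and 0.15 in Clrn2-/- mice, beside a median of 0.00 over all tested genes in each.

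The promoters of Ttn, Pygm, Cox8b and Casq1 from RefSeq are shown because these genes were called in a single mutant line and have the most counts of the called genes with a window, while those of the sparse Mb are not printed. Each line is the 250 bases before the start site on GRCm38.p6, 5′ to 3′ on the strand of the gene, with capitals at every match to the E-box CANNTG, the site of myogenic and other basic helix-loop-helix factors, or to the MEF2 box. The Ttn window is chr2:76982548-76982797 on the minus strand, that of Pygm chr19:6384158-6384407 on the plus strand, that of Cox8b chr7:140900447-140900696 on the minus strand and that of Casq1 chr1:172219896-172220145 on the minus strand.
Ttn: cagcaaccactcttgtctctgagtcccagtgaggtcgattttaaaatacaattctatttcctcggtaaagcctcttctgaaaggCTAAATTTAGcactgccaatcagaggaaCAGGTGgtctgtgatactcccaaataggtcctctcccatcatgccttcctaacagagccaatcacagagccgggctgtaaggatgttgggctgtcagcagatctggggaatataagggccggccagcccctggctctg
Pygm: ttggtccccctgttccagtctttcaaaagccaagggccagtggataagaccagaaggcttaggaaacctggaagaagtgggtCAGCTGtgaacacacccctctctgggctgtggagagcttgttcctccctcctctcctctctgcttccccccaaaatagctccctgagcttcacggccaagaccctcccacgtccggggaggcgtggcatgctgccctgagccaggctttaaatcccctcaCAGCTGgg
Cox8b: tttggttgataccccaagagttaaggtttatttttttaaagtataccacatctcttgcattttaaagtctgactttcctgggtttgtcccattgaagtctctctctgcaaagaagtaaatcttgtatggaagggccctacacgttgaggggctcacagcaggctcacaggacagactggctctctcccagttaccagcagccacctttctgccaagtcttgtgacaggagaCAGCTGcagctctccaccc
Casq1: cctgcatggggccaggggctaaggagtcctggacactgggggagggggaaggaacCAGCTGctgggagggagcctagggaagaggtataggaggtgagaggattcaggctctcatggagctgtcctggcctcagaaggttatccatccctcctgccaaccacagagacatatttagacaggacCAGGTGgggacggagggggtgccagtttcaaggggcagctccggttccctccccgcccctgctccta

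Promoter windows of 300 bases, from 250 before to 50 after the start, were given for 9 of the 10 genes. Both strands were searched, and the E-box and the MEF2 box or CArG box can overlap. All 11 windows of these 9 genes held an E-box, as did 72.3% of the 32851 windows of all genes. The MEF2 box, found in 3.19% of all windows, occurred in 1 of the 11, that of Ttn, 166 bases before its start, where the E-box lies 138 bases before it. The CArG box, the site of serum response factor, was in 1.63% of all windows and in 1 of the 11, that of Acta1, 73 bases before its start. Pygm had 3 E-boxes, 168 and 8 bases before the start and 1 after it, Cox8b had 2, 19 bases before and 1 after it, and Casq1 had 2, 195 and 67 bases before it. Windows of the genes that fell and of the gene that rose both held an E-box, and each match describes the letters and not a bound site.

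Titin, the giant elastic protein that spans from the Z-disc to the M-band, is encoded by Ttn on chromosome 2 (76703980 to 76982547, GRCm38, minus strand). Its level was 18.3, 17.8 and 15.8 CPM in the wild-type libraries, 6.83, 6.70 and 6.99 in Clrn1-/- and 4.09, 3.15 and 4.07 in Clrn2-/- libraries. The 3 genotypes did not overlap, and Ttn was lowest in Clrn1-/-Clrn2-/- libraries, at 2.46, 2.70 and 2.81 CPM. The log2 fold change was -1.34 (SE 0.096, adjusted p = 8.6e-08 in edgeR's quasi-likelihood test) in Clrn1-/- and -2.19 (SE 0.10, adjusted p = 4.1e-09) in Clrn2-/- mice, so that the level was 2.52-fold and 4.56-fold lower than in wild-type, respectively. Clrn1-/- libraries lay above Clrn2-/- libraries by a log2 difference of 0.85 (SE 0.11, adjusted p = 5.2e-05). The 2 groups compared hold none of the libraries the genes were picked on, but the fit takes its estimate of the spread from all 12 libraries. With only these 2 genotypes fitted, the log2 difference was 0.85 with an adjusted p of 3.7e-04 in the same test. An antisense gene, Gm13938, overlaps Ttn, and 89.1% of the stranded counts of the Ttn entry were in its own orientation.

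Telethonin, the small cap that joins titin ends at the Z-disc, is encoded by Tcap on chromosome 11 (98383811 to 98384953). Its level varied more between wild-type libraries than that of Ttn, with 12.02, 17.4 and 22.4 CPM, and was 3.95, 6.47 and 6.29 CPM in Clrn1-/- and 5.57, 6.55 and 7.19 CPM in Clrn2-/- libraries. Every mutant library was below every wild-type library, and the 2 lines overlapped each other. Tcap fell by 1.62 on the log2 scale in Clrn1-/- (SE 0.20, edgeR adjusted p = 2.1e-05) and by 1.43 in Clrn2-/- mice (SE 0.19, adjusted p = 1.6e-04), and the difference between these lines was -0.20 (SE 0.21, adjusted p = 0.566). The level in Clrn1-/-Clrn2-/- libraries was 4.33, 3.83 and 4.23 CPM. Although their proteins bind each other, Tcap and Ttn had a Pearson r of -0.33 over the 12 libraries after the genotype means were removed.

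The other structural members did not follow these changes. Desmin, the intermediate filament that links neighbouring Z-discs, is encoded by Des and also marks pericytes and smooth muscle. Des lay at 8.74, 8.77 and 7.21 CPM in wild-type, 9.65, 8.43 and 9.56 in Clrn1-/- and 7.72, 9.09 and 9.36 in Clrn2-/- libraries, and these overlapped. Its log2 difference from wild-type was 0.16 in Clrn1-/- (SE 0.11, edgeR adjusted p = 0.315) and 0.08 in Clrn2-/- mice (SE 0.11, adjusted p = 0.689). In Clrn1-/-Clrn2-/- libraries it was 11.4, 13.1 and 10.3 CPM, above every library of the other genotypes. Summed smooth muscle and pericyte markers ran from 577 to 630 CPM in wild-type, 559 to 644 in Clrn1-/-, 501 to 516 in Clrn2-/- and 637 to 645 in Clrn1-/-Clrn2-/- libraries, and their part in the level of Des was not tested.

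Actn2, which encodes the α-actinin that cross-links actin at the Z-disc of skeletal and cardiac muscle, was at 5.62, 5.63 and 6.35 CPM in Clrn2-/- and at 3.79, 5.15 and 4.28 CPM in wild-type libraries. These groups did not overlap, and the log2 difference of 0.41 (SE 0.12) had an adjusted p of 0.0250 in edgeR's quasi-likelihood test but stayed under 1.5-fold. In Clrn1-/- libraries Actn2 was at 5.19, 5.23 and 5.32 CPM, a log2 difference from wild-type of 0.25 (SE 0.12, adjusted p = 0.124). The 4.33, 4.90 and 4.67 CPM of Clrn1-/-Clrn2-/- libraries lay within the wild-type range.

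Skeletal α-actin, the main thin filament protein of adult skeletal muscle, is encoded by Acta1 and was close to the detection limit. Its 3 wild-type libraries held 0.983, 0.192 and 0.557 CPM, a range that contained all values of the Clrn1-/- (0.601, 0.543 and 0.286 CPM), Clrn2-/- (0.753, 0.796 and 0.815 CPM) and Clrn1-/-Clrn2-/- libraries (0.852, 0.446 and 0.696 CPM). The log2 difference from wild-type was -0.28 (SE 0.44, edgeR adjusted p = 0.679) in Clrn1-/- and 0.45 (SE 0.41, adjusted p = 0.519) in Clrn2-/- mice. No difference of Acta1 was detectable at this depth, with 266 counts over the 12 libraries.

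Calsequestrin-1, the calcium store of the sarcoplasmic reticulum in fast skeletal muscle, is encoded by Casq1 on chromosome 1 (172209894 to 172219868, minus strand) and was the 1 member that rose. It lay at 6.69, 8.33 and 8.40 CPM in wild-type and at 14.9, 14.2 and 15.5 CPM in Clrn1-/- libraries, a 1.90-fold higher level (log2 fold change 0.93, SE 0.096, adjusted p = 4.5e-06 in edgeR's quasi-likelihood test). Clrn2-/- libraries lay between both, at 10.5, 9.03 and 10.7 CPM, with a log2 difference from wild-type of 0.37 (SE 0.098, adjusted p = 0.0194) that stayed under 1.5-fold. Clrn1-/- exceeded Clrn2-/- libraries by 0.56 on the log2 scale (SE 0.094, adjusted p = 7.1e-04), also under 1.5-fold. The 13.9, 15.7 and 15.5 CPM of Clrn1-/-Clrn2-/- libraries overlapped with those of Clrn1-/- mice.

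The metabolic members divided into abundant genes that fell and sparse ones. Muscle glycogen phosphorylase, which releases glucose 1-phosphate from glycogen and is lost in McArdle disease, is encoded by Pygm on chromosome 19 (6384399 to 6398459) and had the most counts of all members, 18059 over the 12 libraries. It was at 74.6, 72.3 and 67.4 CPM in wild-type, 26.1, 31.4 and 28.3 in Clrn1-/- and 42.1, 42.6 and 40.3 in Clrn2-/- libraries. These 3 genotypes did not overlap. The log2 fold change was -1.32 (SE 0.069, edgeR adjusted p = 3.1e-09) in Clrn1-/- and -0.78 (SE 0.068, adjusted p = 3.4e-06) in Clrn2-/- mice, and Clrn1-/- lay below Clrn2-/- mice by a log2 difference of -0.54 (SE 0.070, adjusted p = 7.3e-05), under 1.5-fold. In Clrn1-/-Clrn2-/- libraries Pygm was at 27.5, 25.03 and 23.2 CPM, overlapping with Clrn1-/-. The order of the lines for Pygm was thus the reverse of that for Ttn, which was lower in Clrn2-/- than in Clrn1-/- mice.

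Cox8b, the heart and skeletal muscle form of subunit 8 of cytochrome c oxidase that is also found in brown fat, lies on chromosome 7 (140898945 to 140900446, minus strand). It was at 18.3, 21.0 and 20.8 CPM in wild-type, 6.93, 4.81 and 6.55 in Clrn1-/- and 8.04, 6.43 and 5.62 in Clrn2-/- libraries. The mutant lines overlapped each other and both lay below wild-type, with a log2 fold change of -1.72 (SE 0.15, edgeR adjusted p = 5.5e-07) in Clrn1-/- and of -1.58 (SE 0.14, adjusted p = 5.1e-06) in Clrn2-/- mice. In Clrn1-/-Clrn2-/- libraries it was 3.84, 5.44 and 4.20 CPM. Of 9 fat markers, Ucp1, Elovl3, Plin1, Cidec, Lep and Retn had at most 3 counts in every library and Elovl3 had none, and the 9 summed to 1.19 to 2.75 CPM across all libraries.

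Myoglobin, the oxygen store of red muscle, is encoded by Mb and was sparse, with 250 counts over the 12 libraries. It lay at 0.730, 0.630 and 0.658 CPM in wild-type and 0.253, 0.233 and 0.442 CPM in Clrn1-/- libraries, which did not overlap, and at 0.968, 0.643 and 0.731 CPM in Clrn2-/- libraries. Mb fell in Clrn1-/- mice by 1.10 on the log2 scale (SE 0.29, edgeR adjusted p = 0.0108) and was lower in Clrn1-/- than in Clrn2-/- mice by a log2 difference of -1.32 (SE 0.29, adjusted p = 0.00462). More stranded counts of the Mb entry, 429, lay on the opposite strand, where Apol6 and Gm49540 overlap the gene, and without strand the change in Clrn1-/- mice was -0.55 (adjusted p = 0.0982) and the difference between the lines was 0.068. Without Clrn1-/- replicate 2 the change was -0.91, with an adjusted p of 0.0581.

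Muscle creatine kinase, which regenerates ATP from creatine phosphate, is encoded by Ckm and had only 92 counts over the 12 libraries, against 173 on the opposite strand, where A930016O22Rik lies. Its level was 0.309, 0.0822 and 0.202 CPM in wild-type, 0.127, 0.207 and 0.104 in Clrn1-/-, 0.188, 0.398 and 0.169 in Clrn2-/- and 0.295, 0.416 and 0.129 in Clrn1-/-Clrn2-/- libraries. All 4 genotypes overlapped. The log2 difference from wild-type, -0.42 (SE 0.59, edgeR adjusted p = 0.648) in Clrn1-/- and 0.32 (SE 0.54, adjusted p = 0.748) in Clrn2-/- mice, was within its error.

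**Figure D2:**
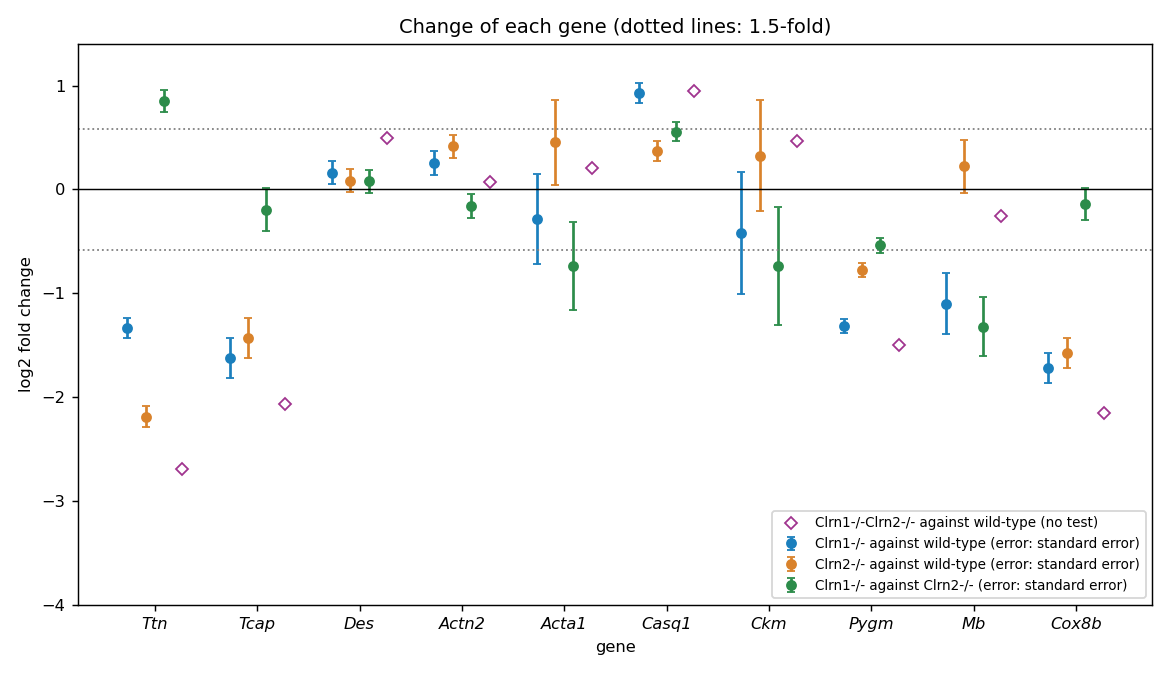
Log2 fold change of each gene in the 3 tested comparisons, with error bars of 1 standard error, and for Clrn1-/-Clrn2-/- against wild-type as open diamonds without error or test. Dotted lines mark 1.5-fold in each direction, and Ttn, Tcap, Pygm and Cox8b lie under the lower line in both single mutant lines, with Casq1 above the upper line in Clrn1-/- mice.

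Between the single mutant lines, 2 of the 10 genes passed the test, Ttn higher and Mb lower in Clrn1-/- than in Clrn2-/- mice. Over all genes 2.4% were called higher and 2.34% lower in this comparison. Casq1 and Pygm had adjusted p-values under 0.05 with changes under 1.5-fold, as given above. Without Clrn1-/- replicate 2 the changes of both passed 1.5-fold, at 0.59 and -0.61 on the log2 scale, so that 4 members were called. For Tcap, Cox8b, Des and Actn2 the log2 difference between the lines lay between -0.20 and 0.08, with standard errors of 0.11 to 0.21. The sparse Acta1 and Ckm were both at -0.74 (SE 0.42 and 0.57).

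In Clrn1-/-Clrn2-/- mice, 4 members lay at least 1.5-fold below wild-type and 1 above, without overlap of libraries, as did 4.41% and 6.48% of all tested genes. These are the values the genes were picked on. The fitted log2 differences were -2.69 for Ttn, -2.16 for Cox8b, -2.07 for Tcap, -1.5 for Pygm and 0.94 for Casq1. Those of Des (0.49), Ckm (0.47), Acta1 (0.20), Actn2 (0.07) and Mb (-0.25) were under 1.5-fold. Against the single mutant lines, Clrn1-/-Clrn2-/- libraries differed most from Clrn1-/- in Ttn (-1.36) and in the sparse Ckm (0.88) and Mb (0.85), and from Clrn2-/- in Pygm (-0.73), Tcap (-0.64), Cox8b (-0.58), Casq1 (0.57) and Ttn (-0.50), all on the log2 scale.

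Other cell types also differed between the genotypes. The 7 red blood cell markers summed to 710 to 1160 CPM in wild-type, 286 to 389 in Clrn1-/-, 438 to 657 in Clrn2-/- and 547 to 738 in Clrn1-/-Clrn2-/- libraries, and 6 of the 7 were called lower in Clrn1-/- and 5 in Clrn2-/- mice. Summed fibroblast markers ran from 8274 to 10184 CPM in wild-type, 6258 to 6848 in Clrn1-/-, 6126 to 6572 in Clrn2-/- and 8433 to 9750 in Clrn1-/-Clrn2-/- libraries. Within this list, 2 of 9 were called higher, Lum and Col3a1, and 3 lower, Coch, Otos and Fbln1, in Clrn1-/- mice, where the median log2 change was 0.17. Bone markers summed to 89.8 to 164 CPM in wild-type and 170 to 200 in Clrn1-/- libraries. They were at 101 to 131 in Clrn2-/- and 157 to 184 in Clrn1-/-Clrn2-/- libraries. In the same order, heart muscle markers summed to 45.9 to 48.9, 57.4 to 62.4, 47.3 to 49.5 and 38.8 to 42.0 CPM. Stria vascularis markers summed to 469 to 677, 545 to 602, 553 to 609 and 614 to 673 CPM. Gene by gene, 7 of 8 lay below wild-type in Clrn1-/-Clrn2-/- mice.

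Hair cell markers summed to 3514 to 3993 CPM in wild-type, 2861 to 3031 in Clrn1-/-, 3213 to 3815 in Clrn2-/- and 2484 to 2697 in Clrn1-/-Clrn2-/- libraries, and abundant genes such as Calb2 weigh most in these sums. Gene by gene, 1 of 14 was called higher and 2 lower in Clrn1-/- and 4 higher and 0 lower in Clrn2-/- mice, and in Clrn1-/-Clrn2-/- mice 10 lay above wild-type and 4 below, with a median of 0.15. Neuron markers summed to 12266 to 13462 CPM in wild-type, 11347 to 11801 in Clrn1-/-, 10718 to 12347 in Clrn2-/- and 8626 to 8786 in Clrn1-/-Clrn2-/- libraries, with 11 of 12 below wild-type in the last. Supporting cell markers summed to 1818 to 1944 CPM in wild-type, 1858 to 1937 in Clrn1-/-, 1996 to 2247 in Clrn2-/- and 2496 to 2600 in Clrn1-/-Clrn2-/- libraries. The part of these cells in the changes of the muscle genes was not tested.

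The members were next set beside related forms of the same proteins, most of them used outside striated muscle. Of 13 such genes, edgeR's quasi-likelihood test called 0 in each single mutant line and 0 between the lines, as did limma-voom and DESeq2, although 9, 7 and 2 of them had an unadjusted p under 0.05. Their log2 changes lay between -0.27 and 0.37 in Clrn1-/- and between -0.47 and 0.20 in Clrn2-/- mice. In Clrn1-/-Clrn2-/- mice, with no test, 3 of the 13 lay at least 1.5-fold above wild-type without overlap of libraries (Actn4, Vim and Actn1, at 0.70, 0.61 and 0.60 on the log2 scale) and 2 below (Pygl and Ckmt1, at -0.80 and -0.79). Pygb, the brain glycogen phosphorylase, lay at 55.8 ± 0.86 CPM per kb in wild-type and 55.8 ± 0.86 in Clrn1-/- libraries (SD, n = 3), whereas Pygm went from 22.2 ± 1.1 to 8.89 ± 0.83. Cox8a, the form of subunit 8 found in most tissues, was at 292 ± 10 CPM per kb in wild-type and 273 ± 17 in Clrn1-/- libraries, against 55.6 ± 4.1 and 16.9 ± 3.1 for Cox8b. Ckb, the brain creatine kinase, stood at 575 ± 16 CPM per kb in wild-type libraries, far above the 0.0679 ± 0.039 of Ckm.

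**Figure D3:**
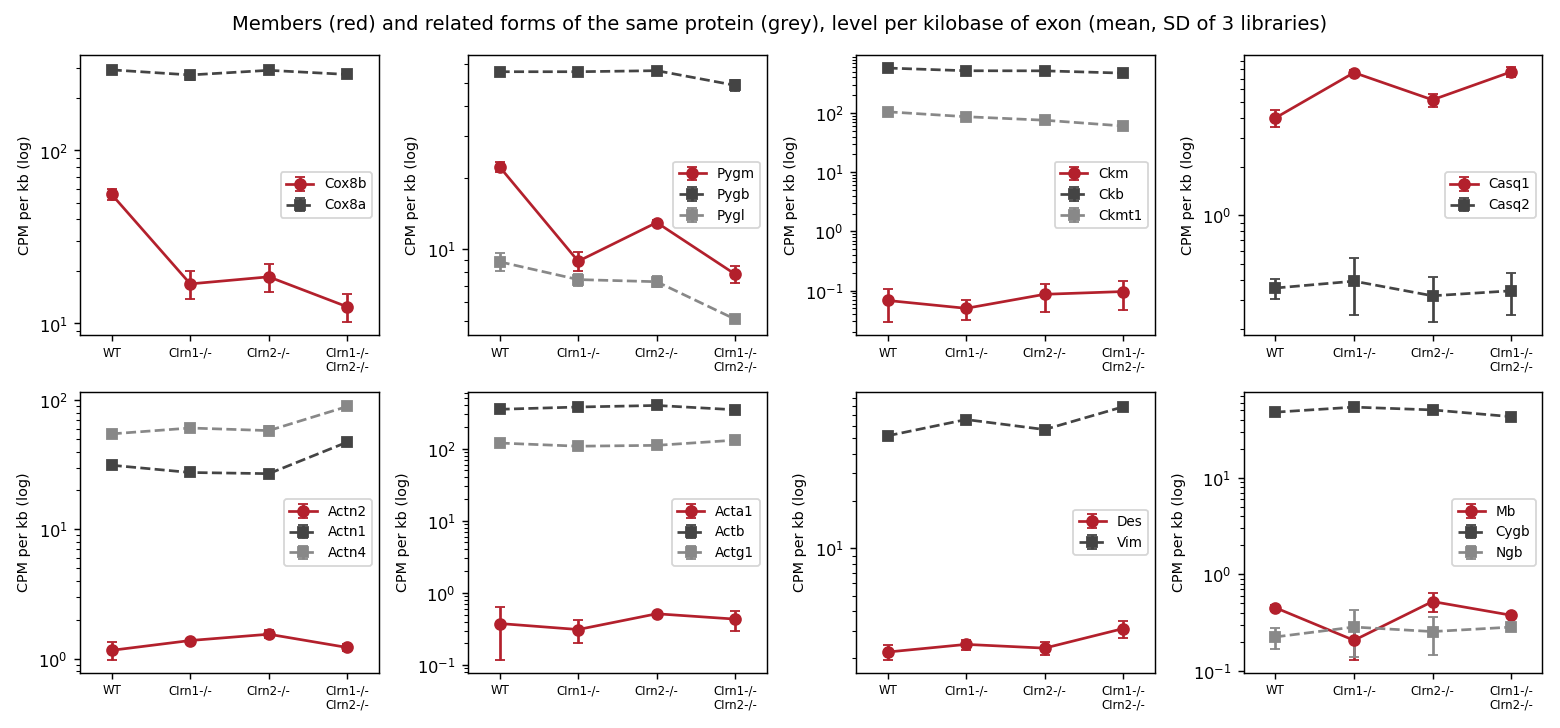
Level per kilobase of exon (CPM per kb, logarithmic axes) of 8 members in red and of related genes in grey, as the mean of 3 libraries per genotype with an error bar of 1 SD. Cox8a, Pygb, Ckb, Actn1, Actn4, Actb, Actg1, Vim and Cygb lie above the muscle form in every genotype, whereas Casq1 lies above Casq2 and Pygm above Pygl.

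A wider list of 123 genes of the filaments, the Z-disc, calcium release, muscle metabolism and myogenic regulation, without the members, was examined to place them. Of its 95 tested genes, 8 were called higher and 13 lower in Clrn1-/- mice, 7 higher and 5 lower in Clrn2-/- mice, and 6 higher and 5 lower in Clrn1-/- than in Clrn2-/- mice. Over all tested genes, 3.52% were called higher and 3.7% lower in Clrn1-/-, and 1.24% and 1.42% in Clrn2-/- mice. Between the lines the shares were 2.4% and 2.34%, and these shares also belong beside the counts of the smaller lists below. The median log2 change of the 95 genes was -0.04, -0.05 and 0.00, respectively. Of their calls, 14, 7 and 5 were made under every alternative setting. In Clrn1-/-Clrn2-/- mice, 9 of the 95 lay at least 1.5-fold above and 15 below wild-type without overlap, and their median was -0.07. Of all tested genes, 6.48% lay above and 4.41% below in this way.

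The genes of calcium release moved in both directions, with 3 of 19 called higher and 4 lower in Clrn1-/- and 3 higher and 1 lower in Clrn2-/- mice. Ryr1, the calcium release channel of the skeletal muscle sarcoplasmic reticulum, showed the largest change of the list. It was at 0.309, 0.520 and 0.405 CPM in wild-type, 5.82, 5.41 and 6.83 in Clrn1-/- and 4.30, 4.04 and 5.90 in Clrn2-/- libraries. The log2 fold change was 3.86 (SE 0.21, edgeR adjusted p = 3.5e-09) and 3.52 (SE 0.21, adjusted p = 1.2e-07), and Clrn1-/-Clrn2-/- libraries held 7.77, 8.62 and 9.02 CPM. Chrna1, the α subunit of the muscle acetylcholine receptor, rose by 1.38 and 1.05 on the log2 scale (edgeR adjusted p = 1.0e-05 and 3.5e-04). Srl, the sarcoplasmic reticulum protein sarcalumenin, fell by 0.71 in Clrn1-/- mice (adjusted p = 1.2e-04).

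Among 13 thick filament genes, 2 were called higher and 4 lower in Clrn1-/-, and 1 higher and 1 lower in Clrn2-/- mice. Myl1, a fast skeletal myosin light chain, was at 8.68, 8.85 and 10.9 CPM in wild-type and 42.7, 39.6 and 36.6 in Clrn1-/- libraries, but at 7.72, 6.55 and 6.21 in Clrn2-/- and 3.08, 2.65 and 2.40 in Clrn1-/-Clrn2-/- libraries. It thus rose in Clrn1-/- mice by 2.06 on the log2 scale (SE 0.10, edgeR adjusted p = 1.1e-09), while both other mutant groups lay below wild-type. The difference between Clrn1-/- and Clrn2-/- mice was 2.53 (SE 0.10, adjusted p = 1.6e-10). Mybpc2, the fast myosin-binding protein C, fell by 1.25 and 1.49 on the log2 scale in Clrn1-/- and Clrn2-/- mice (edgeR adjusted p = 3.8e-04 and 2.4e-04). Myh8, the perinatal myosin heavy chain, fell in Clrn1-/- mice by 1.96 (SE 0.49, adjusted p = 0.00776), but by 1.19 with an adjusted p of 0.0540 without wild-type replicate 2.

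Of 12 thin filament genes, 1 was called higher and 1 lower in Clrn1-/- and 1 higher in Clrn2-/- mice. The higher gene was in both Lmod3, the leiomodin that nucleates thin filaments of skeletal muscle, at 1.52, 1.67 and 1.90 CPM in wild-type, 4.81, 4.73 and 6.68 in Clrn1-/-, 5.51, 4.32 and 5.99 in Clrn2-/- and 6.95, 7.55 and 9.62 in Clrn1-/-Clrn2-/- libraries. Its log2 fold change was 1.67 (SE 0.19, edgeR adjusted p = 9.2e-06) and 1.63 (SE 0.19, adjusted p = 3.6e-05). Tmod4, the tropomodulin of skeletal muscle that caps the same filaments, fell in Clrn1-/- mice by 0.83 (adjusted p = 1.0e-04) and was at a log2 difference of -0.04 in Clrn2-/- mice (adjusted p = 0.879). Of 25 Z-disc and scaffold genes, 1 was called in each direction in each line. Trim54, a sarcomeric ubiquitin ligase, fell in Clrn1-/- mice by 0.87 (adjusted p = 9.7e-05), and Myot, the Z-disc protein myotilin, fell in Clrn2-/- mice by 1.24 (adjusted p = 0.00685). The genes called higher were Hspb7 in Clrn1-/- and Xirp2 in Clrn2-/- mice. The call of Xirp2 was lost under several alternatives, such as without wild-type replicate 1 (0.51, edgeR adjusted p = 0.17).

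Of 17 genes of muscle energy metabolism, 1 was called higher and 3 lower in Clrn1-/-, and 1 higher and 2 lower in Clrn2-/- mice. Fbp2, the muscle fructose bisphosphatase, rose by 2.08 (SE 0.19, edgeR adjusted p = 1.1e-06) and 1.30 (SE 0.20, adjusted p = 3.9e-04) on the log2 scale, from 0.590, 0.931 and 1.19 CPM in wild-type to 4.24, 3.67 and 3.69 in Clrn1-/- and 1.99, 2.20 and 2.56 in Clrn2-/- libraries. Art1, a muscle ADP-ribosyltransferase, went the other way, from 3.71, 5.15 and 2.25 CPM to 0.601, 0.931 and 1.45 and to 1.26, 1.29 and 1.10 CPM (log2 fold change -1.87 and -1.60, adjusted p = 9.8e-04 and 0.00514). Of 9 tested myogenic regulators, 0 were called in each of the 3 comparisons by edgeR, limma-voom and DESeq2, with 6, 6 and 3 at an unadjusted p under 0.05 in edgeR.

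**Figure D4:**
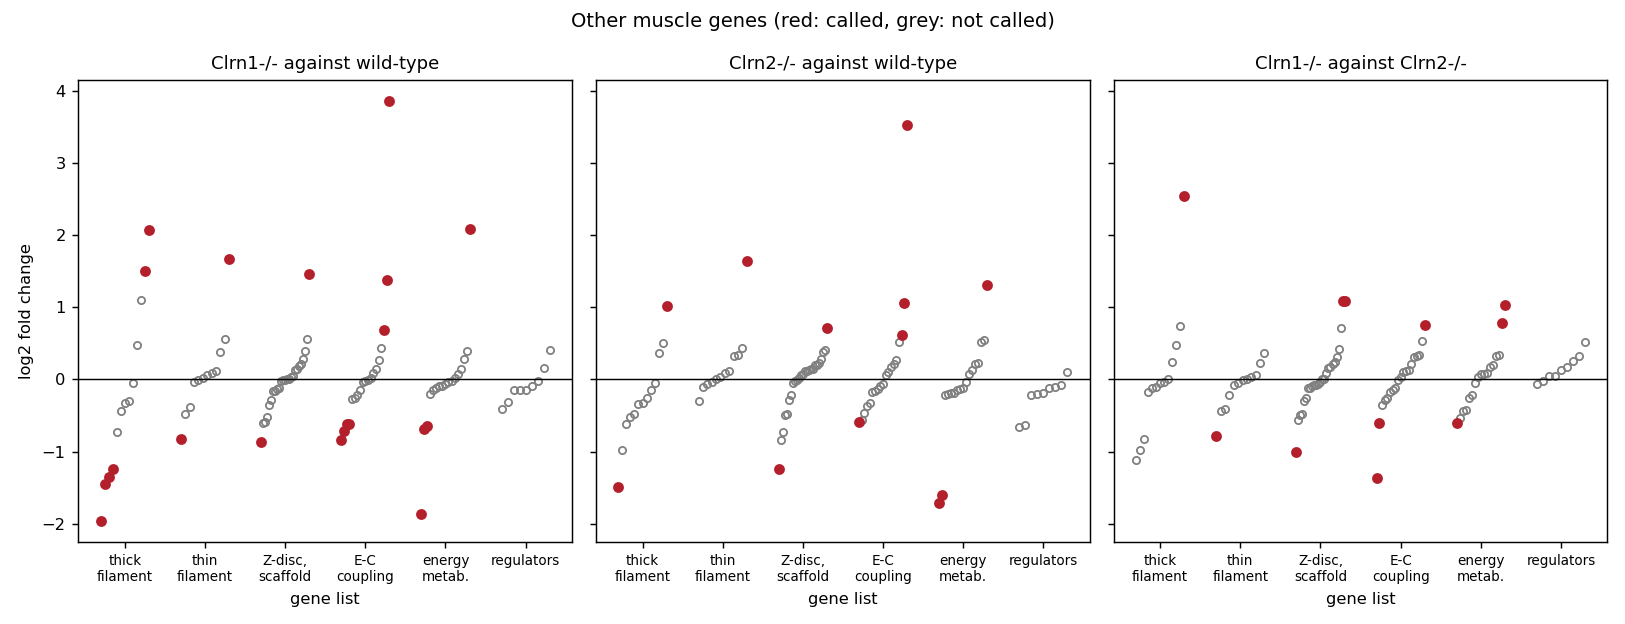
Log2 fold change of the 95 other muscle genes in the 3 tested comparisons, ordered by size within 6 gene lists on the horizontal axis, with called genes as filled red points and the rest as open grey points. Called points lie on both sides of 0 in most lists, with Ryr1 the highest in both comparisons with wild-type and no called point among the regulators.

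**Figure D5:**
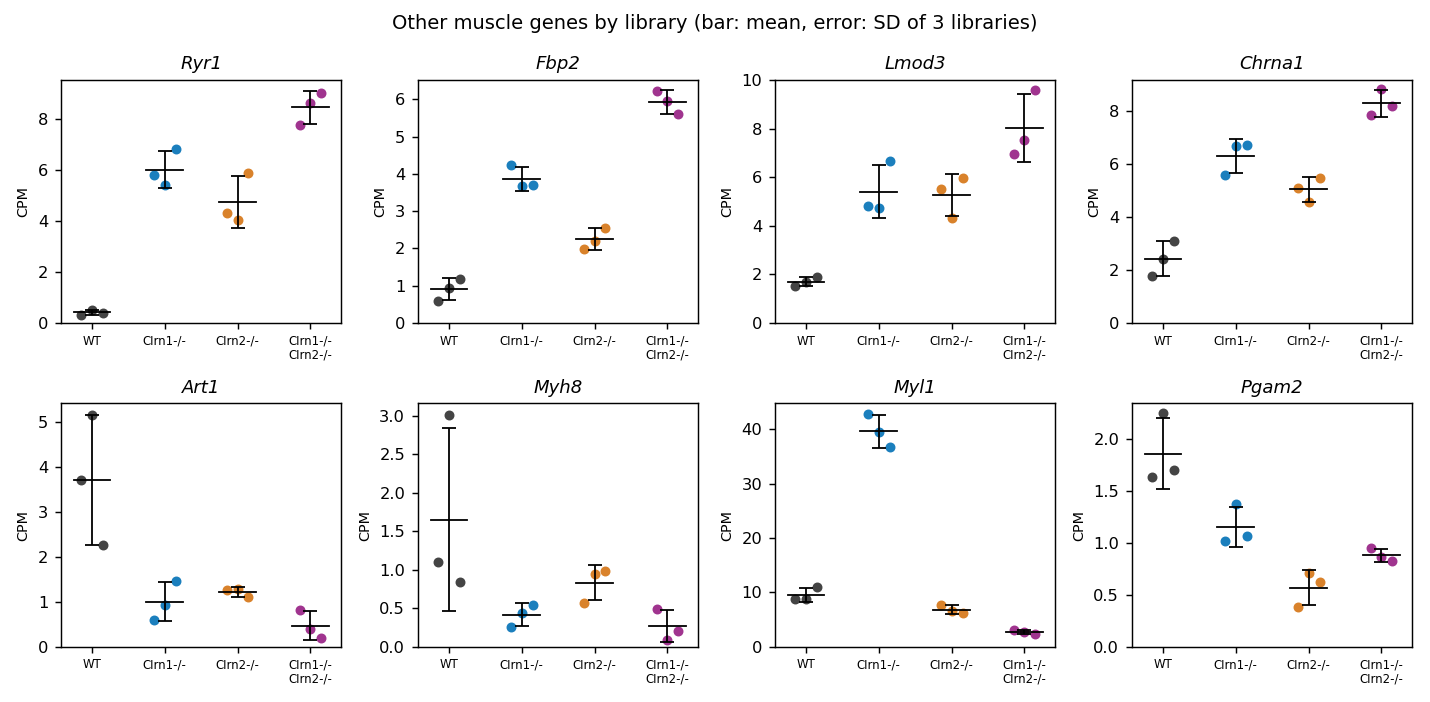
CPM of 8 other muscle genes in each of the 12 libraries, with 3 points per genotype, a bar at the mean and an error bar of 1 SD. Ryr1, Fbp2, Lmod3 and Chrna1 are higher in all mutant libraries than in wild-type, Art1 is lower, and Myl1 is high in Clrn1-/- libraries alone of the 4 genotypes.

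The members did not vary as 1 group between libraries of the same genotype. Over the 12 libraries, after the genotype means were removed, Pearson r between the 7 members with at least 1 CPM ran from -0.58 for Casq1 and Pygm to 0.73 for Actn2 and Casq1. These libraries share depth and dissection, and r is given as a description. Among 15406 genes compared, the 1 most like Pygm was Dip2a (r = 0.98, Spearman's rho 0.97), the 1 most like Casq1 was Sfrp2 (r = 0.95, rho 0.92) and the 1 most like Ttn was Med14 (r = 0.94, rho 0.87). Of the genes closest to Actn2, Derl3 (r = 0.95, rho 0.92) came first and Xirp2, a protein of the actin cytoskeleton in striated muscle, second (r = 0.95, rho 0.92). Tcap was closest to Klhl26, Des to Zfp39 and Cox8b to Zfand3, each at r = 0.94. All these genes were picked as the closest of 15406 over only 12 libraries. How high the largest r of so many unrelated genes would be was not tested, so no link between the genes is read from them.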

How the data were processed

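Read pairs per gene were counted by the authors with STAR on GRCm38.p6 with Gencode vM24, and deposited as raw counts of each library (3 columns: unstranded, forward and reverse strand). DESeq2 is also named in the submitters' processing notes. The reverse-strand counts were used, as 95.2% to 95.6% of stranded counts lay there, and reads not assigned to a gene (13.5% to 15.8%) were left out. Coordinates and exon lengths came from Gencode vM21 of the same build and promoters from RefSeq.

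In R 4.3.3, edgeR 4.0.16 kept genes by filterByExpr (minimum count of 10) and scaled by TMM. All 12 libraries were fitted together with genotype alone, tested by quasi-likelihood with Benjamini-Hochberg adjustment over 19052 genes, and checked on simulated counts. Fold changes come from the fit. Alternatives were limma-voom (limma 3.58.1, the test the study used), DESeq2 1.42.0, other scaling, filtering, strand and samples, and a replicate block. Same-numbered wild-type and Clrn1-/- libraries deviated together (correlations of 0.254, 0.122 and 0.103). Those of Clrn1-/- and Clrn2-/- libraries were also positive but smaller (0.032, 0.021 and 0.083), and each other pair of genotypes had a negative value.

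The members and gene lists were chosen with earlier results of these data known. Genes named are all members and, from each list, the called genes with the largest changes in each direction and the most abundant ones, and up to 3 genes most like each member. Genes of the lists named outside this rule were chosen after their values were seen.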

Additional observations from a re-analysis of the deposited data

Results flagged for a closer look

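Some genes moved one way in every library when 1 clarin was lost from wild-type mice and the other way in every library when the same clarin was lost from mice that already lacked the other. The difference between the effects in both backgrounds was not tested, and log2 fold changes are given. For loss of Clrn1, from wild-type and from Clrn2-/- mice, they were 0.25 and -0.34 for Actn2, 2.06 and -1.34 for Myl1, -0.65 and 0.61 for Lpl, -0.68 and 0.64 for Pgam2, 0.10 and -0.20 for Actb, and 0.16 and -0.088 for Mef2a. For loss of Clrn2, from wild-type and from Clrn1-/- mice, they were 0.41 and -0.18 for Actn2, 0.61 and -0.24 for Jsrp1, 0.12 and -0.29 for Fhl1, 0.18 and -0.13 for Actb, and 0.11 and -0.14 for Mef2a. With unstranded counts, the change of Pgam2 in Clrn1-/- against wild-type mice was only -0.13 (edgeR adjusted p = 0.52).

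Counts on the strand opposite to the gene, which entered only the alternative with unstranded counts, exceeded those in its own orientation for Ckm, with 173 against 92, and for Mb, with 429 against 250, over the 12 libraries.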

How the results depend on the processing

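Of 97 recomputed counts of calls, 91 stayed within 1.5 times the reported count. Of 384 tested member values under alternatives, 369 kept direction and call, 10 reversed, 3 became called and 2 lost the call. Of 129 values of Clrn1-/-Clrn2-/- mice against wild-type, which have no test, 127 moved by less than the spread between replicates and 3 changed sign, Actn2 to -0.029 without wild-type replicate 1 and Acta1 to -0.21 without wild-type replicate 2 and to -0.00036 without Clrn1-/-Clrn2-/- replicate 1. Dropping the fold minimum raised the members called between Clrn1-/- and Clrn2-/- from 2 to 4, and the calls of the wider muscle list to 36 of 95 genes in Clrn1-/- mice, 25 in Clrn2-/- mice and 24 between the lines, in place of 21, 12 and 11. With unstranded counts 1 member was called between the lines, and leaving out each replicate gave 2 to 4, with 4 without Clrn1-/- replicate 2. Casq1 between the lines became called without that library (0.59) or Clrn2-/- replicate 3 (0.60), and Pygm without the former (-0.61).

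Every reversed tested value was of a change that was not called, except that of Mb between the lines. With unstranded counts, Mb was at -0.62 in Clrn2-/- mice and 0.068 between the lines, and in Clrn1-/-Clrn2-/- mice Mb was at -1.27 and Ttn at -2.30 against wild-type. With 1 replicate left out, Des ranged from -0.0064 (without wild-type replicate 3) to 0.17 in Clrn2-/- mice and from -0.014 (without Clrn2-/- replicate 1) to 0.14 between the lines. Acta1 in Clrn1-/- mice ranged from -0.69 to 0.32 and Ckm from -0.77 to 0.029, both highest without wild-type replicate 1. Ckm in Clrn2-/- mice ranged from -0.14 (without Clrn2-/- replicate 2) to 0.77, with -0.030 without wild-type replicate 2. Cox8b between the lines ranged from -0.26 to 0.0043 (without Clrn1-/- replicate 2), with 0.0025 without Clrn2-/- replicate 1. The causes were not tested.

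With the replicate block, the pairing by number changed no member call (6, 4 and 2), and the wider list gave 20, 12 and 10. Acta1, Ckm and Mb rest on 92 to 266 counts over 12 libraries, which limits what can be seen of them.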
